A study of Mus musculus with 8 samples.

Results

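Followed here were 35 of the 30266 genes in the table: nuclear receptors, apart from the bile acid receptor FXR, SHP, LRH-1, HNF4A, the REV-ERB and the thyroid hormone receptors, and 5 coregulators. They were chosen by gene symbol, and each had exactly 1 row. Whole liver came from male mice of 8 weeks labelled Mdr2-/-, which were given recombinant FGF21 (rFGF21, 1.0 mg/kg, 4 libraries) or the vehicle PBS (4 libraries) for 4 h. Every animal in both groups carried the Mdr2-/- genotype. Mdr2 is the older name of Abcb4, which moves phospholipid into bile, and mice without it are known to develop cholestatic liver injury, which was not measured here.

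Nuclear receptors are transcription factors whose activity is set by small lipophilic ligands such as fatty acids, oxysterols, retinoids, steroids and drugs. Many of those in liver bind DNA as partners of an RXR receptor, and they work through coactivators, which open chromatin and recruit polymerase, and corepressors, which do the reverse. A transcript level measures how much of a receptor's message was present, not ligand binding or activity.

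The 8 libraries held 62756328 to 73313449 reads. Every one of the 35 genes passed the filter on low counts, but Esrrg did so through the PBS libraries alone. Along the first principal component (25.7% of the variance) the rFGF21 libraries lay between -51.5 and -13.8. The PBS libraries lay between 9.12 and 65.05 on it, with PBS library 4 the highest. Along the second principal component (17% of the variance) PBS library 4 lay at -53.1, while the other 7 libraries lay between -24.7 and 37.2. Albumin (Alb) was read at 53679 ± 5547 CPM (read counts scaled to library size by TMM) in rFGF21 and 52271 ± 8560 CPM in PBS libraries (SD, n = 4 each). Photoreceptor markers were read because the extraction protocol names another tissue than liver: of the 6 in the table Crx and Rcvrn had 0 reads in all 8 libraries, and the 6 summed to 8.17 to 11.2 CPM in rFGF21 and 7.48 to 12.5 CPM in PBS libraries, mostly Gnat1 (means of 8.95 CPM in rFGF21 and 9.99 CPM in PBS). Abcb4 stood at 407 ± 28.7 CPM in rFGF21 and 384 ± 36.3 CPM in PBS libraries, and reads over the whole gene do not check its disruption. In whole liver, fewer cells of a type and less RNA per cell cannot be told apart.

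Of the 35 genes, 1 changed after rFGF21 and 34 did not pass the test. Nr1i3, which encodes the xenobiotic receptor CAR, fell. The test was edgeR's quasi-likelihood F test, adjusted by the Benjamini-Hochberg method over all 18315 genes tested, and a gene was called at an adjusted p under 0.05. Of the 35, 2.86% were called, against 2.82% of all genes tested (1.15% higher and 1.67% lower) in the same fit. With 1 library left out the share of all genes called was 0.824% (without rFGF21 library 1) to 2.67%, with DESeq2 it was 8.75%, and among the 35 Nr1i3 stayed the 1 call with any library left out, so nothing is read from the shares being near each other. Their median log2 fold change (rFGF21 over PBS) was -0.01, against 0.00338 over all genes tested. Of the 34 genes that were not called, 27 had a log2 fold change between -0.5 and 0.5.

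The receptors with the highest levels per length were those of hepatocyte lipid and drug metabolism. On a scale of CPM per kilobase of annotated exons, Rxra averaged 83.4 over the 8 libraries, Nr1h3 40.4, Nr1i2 37.4 and Nr1i3 26.5. These 4 genes made up 61.1% of the summed level of the 35. For Nr1i3 the annotated exons used as length reach beyond the span given with its counts. Its level per length may therefore be too low, and its rank and the 61.1% are uncertain. Coordinates of some other genes of the 35 differ too. Nr2f6 (20.3) and Nr1h2 (16.2) followed, and 20 genes lay between 1 and 10 CPM per kilobase. The remaining 9 lay under 1, and the lowest were Nr4a2 (0.0752), Vdr (0.0455) and Esrrg (0.0186).

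**Figure D1:**
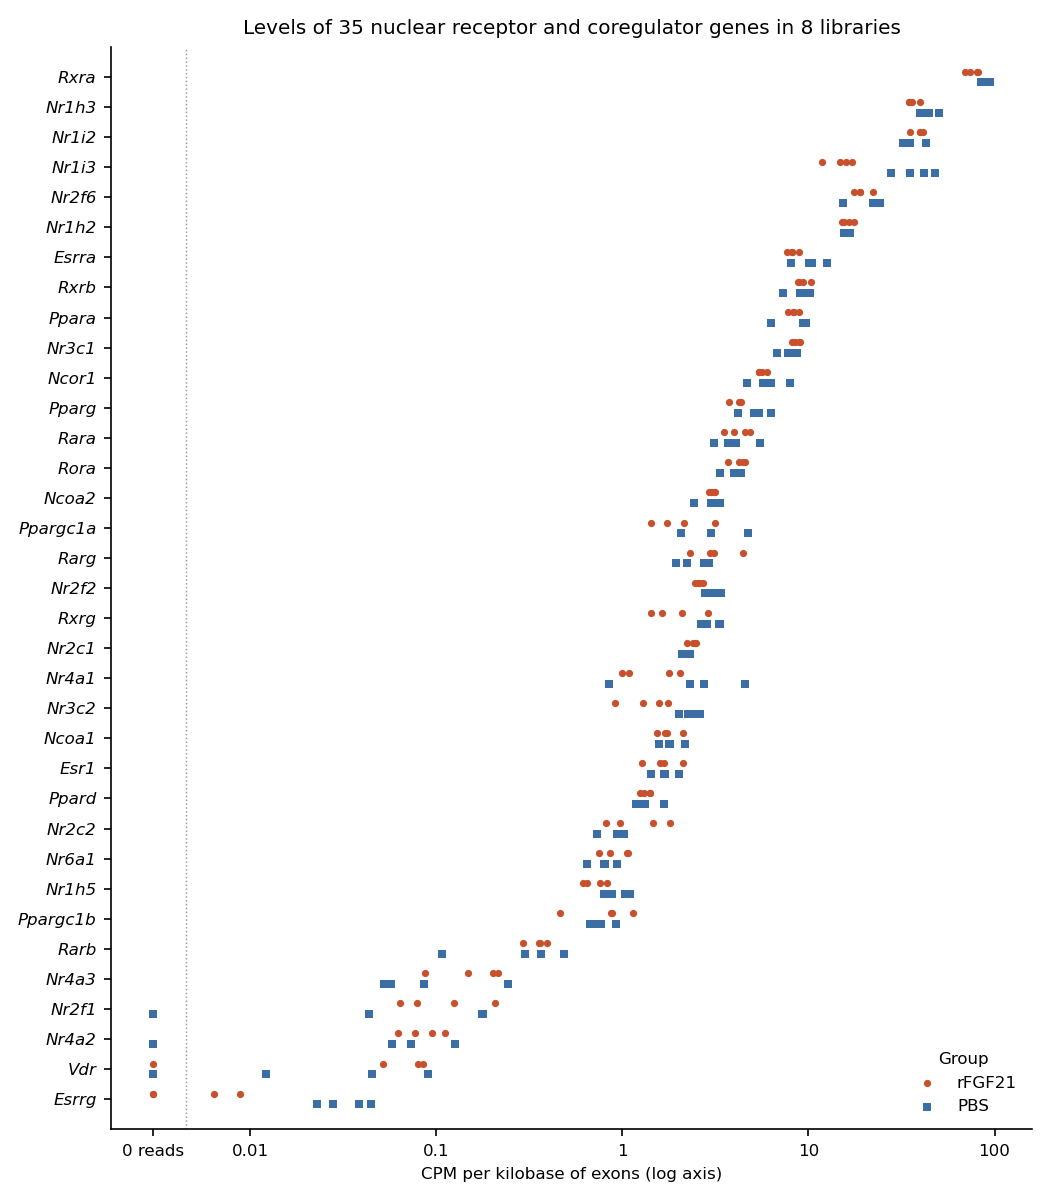
CPM per kilobase of exons for each of the 35 genes (log axis) in rFGF21 libraries (circles, n = 4) and PBS libraries (squares, n = 4), ordered by the mean over the 8 libraries; libraries with 0 reads stand left of the dotted line. Rxra is highest at a mean of 83.4, and Nr1i3 stands out among the abundant genes by the gap between its groups.

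CAR (Nr1i3) and PXR (Nr1i2) are the paired receptors through which hepatocytes sense drugs, bile acids and bilirubin, and after rFGF21 Nr1i3 fell while Nr1i2 did not pass the test. The windows around their transcription starts are printed because CAR is the 1 gene of the 35 that changed and PXR is its close relative that did not pass. They are RefSeq sequences on GRCm38.p6, 250 bases before and 50 bases after the start, 5′ to 3′ on the gene's own strand, with the transcribed bases in capitals: chr1:171213720-171214019 (plus strand) for Nr1i3 and chr16:38294775-38295074 (minus strand) for Nr1i2.
Nr1i3: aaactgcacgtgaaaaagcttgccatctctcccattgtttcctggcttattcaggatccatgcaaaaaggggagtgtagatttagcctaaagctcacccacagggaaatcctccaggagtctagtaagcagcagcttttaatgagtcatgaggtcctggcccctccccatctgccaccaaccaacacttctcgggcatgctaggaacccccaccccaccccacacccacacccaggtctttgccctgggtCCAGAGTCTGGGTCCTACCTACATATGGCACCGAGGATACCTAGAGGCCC
Nr1i2: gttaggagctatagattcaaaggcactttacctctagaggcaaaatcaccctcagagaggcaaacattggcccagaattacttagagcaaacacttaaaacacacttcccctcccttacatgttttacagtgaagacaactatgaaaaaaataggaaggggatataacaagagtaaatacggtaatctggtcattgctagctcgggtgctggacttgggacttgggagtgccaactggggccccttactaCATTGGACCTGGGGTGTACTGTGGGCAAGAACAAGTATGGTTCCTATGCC
Neither window holds AGGTCA, the hexamer that nuclear receptors bind, on either strand. It was found in 5340 of 32851 windows of this length (16.3%) and in 7 of 49 windows of the 32 genes looked up (14.3%), those of Nr6a1, Pparg, Rara, Rarg, Rxra and Rxrg. AGAACA, the hexamer of the glucocorticoid and mineralocorticoid receptors, occurred in the Nr1i2 window alone of these 2, beginning at base 28 after the start. AGAACA was found in 19% of all windows and in 3 of 49 windows of the 32 genes looked up (6.12%), those of Ncoa1, Ncor1 and Nr1i2. Each hexamer was searched on its own, on both strands, so a window can hold both.

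Nr1i3 (ENSMUSG00000005677, GRCm38 chromosome 1, 171213970 to 171219001 in the table) was read at 65.2, 69.9, 75.2 and 52.3 CPM in rFGF21 libraries 1, 2, 3 and 5, against 185, 123, 211 and 156 CPM in PBS libraries 1, 2, 4 and 5. Every rFGF21 library lay below every PBS library, and the highest rFGF21 library was well under the lowest PBS library. Nr1i3 averaged 65.6 ± 9.81 CPM in rFGF21 and 169 ± 38.2 CPM in PBS libraries (SD, n = 4 each), a fall of 2.57-fold with a log2 fold change of -1.36 ± 0.17 (SE; edgeR adjusted p = 0.00552). The call was kept in all 12 alternative analyses, with log2 fold changes between -1.49 and -1.23. Without PBS library 4, the highest in Nr1i3, the log2 fold change was -1.23 (edgeR adjusted p = 0.00985).

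The Nr1i3 counts share sequence with a neighbour. In GENCODE release M21 the exons of Nr1i3 overlap those of Tomm40l, a mitochondrial outer membrane channel gene on the opposite strand, over 3304 of 4414 exon bases (74.9%), or 82.4% of those within the span that the table gives. The labels and headers do not say whether counting used the strand, and without strand reads of these genes cannot be told apart. Tomm40l itself was at 41.1 ± 2.28 CPM in rFGF21 and 39.2 ± 4.05 CPM in PBS libraries (log2 fold change 0.07 ± 0.09, edgeR adjusted p = 0.762). The groups overlapped in Tomm40l and were separate in Nr1i3.

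**Figure D2:**
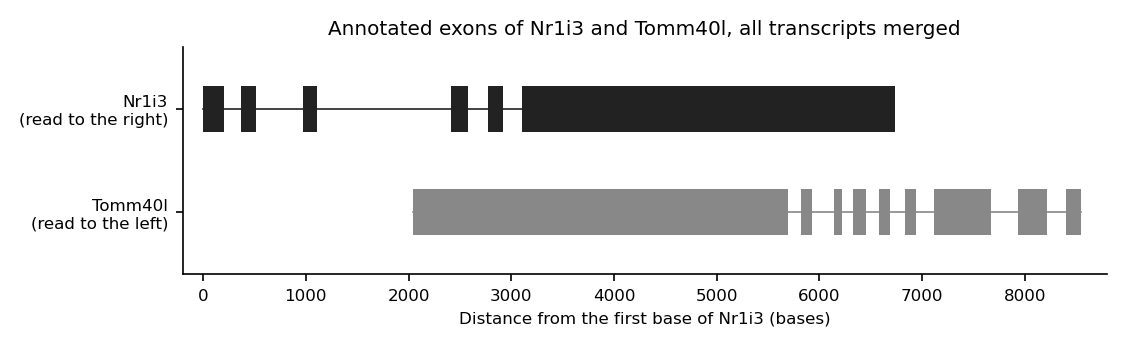
Exons of Nr1i3 (top, black) and Tomm40l (bottom, grey), all annotated transcripts merged, against the distance in bases from the first base of Nr1i3. The long last exon of Tomm40l lies over most of the later Nr1i3 exons, and the shared stretch adds up to 3304 bases.

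Nr1i2, which encodes PXR, had 89.3 to 105 CPM in rFGF21 and 81.9 to 109 CPM in PBS libraries (log2 fold change 0.12 ± 0.11, edgeR adjusted p = 0.585). Its groups overlapped. Vdr, the vitamin D receptor, which in liver is found mainly outside hepatocytes, stood at 0.306 ± 0.22 CPM in rFGF21 and 0.208 ± 0.228 CPM in PBS libraries. It had 0 reads in rFGF21 library 3 and in PBS library 2, which allows up to 3 reads in each. Vdr did not pass (log2 fold change 0.54 ± 1.11, edgeR adjusted p = 0.847), and few reads limit what can be seen at that level.

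Among the retinoid receptors, RXRs are the shared partners of CAR, PXR, PPARs and LXRs, while RARs bind retinoic acid. None of the 6 passed the test. Rxra (chromosome 2, 27676440 to 27762957), the RXR of hepatocytes, was read at 405, 441, 444 and 379 CPM in rFGF21 libraries 1, 2, 3 and 5, against 460, 517, 484 and 517 CPM in PBS libraries 1, 2, 4 and 5. The groups did not overlap, although the gap was narrow. The log2 fold change was -0.25 ± 0.10 (edgeR adjusted p = 0.199).

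Rxrg, a receptor better known from muscle and brain, was far lower. It was read at 3.76, 4.8, 6.64 and 3.25 CPM in rFGF21 libraries 1, 2, 3 and 5, against 6.08, 7.63, 7.68 and 6.55 CPM in PBS libraries 1, 2, 4 and 5. The rFGF21 library 3 lay inside the PBS range and the other 3 lay below it (log2 fold change -0.60 ± 0.22, edgeR adjusted p = 0.172). Rxrb (0.06 ± 0.11), Rara (0.05 ± 0.17), Rarb (0.16 ± 0.37) and Rarg (0.38 ± 0.20) had positive log2 fold changes and overlapping groups. Rarb shares 34.1% of its exon bases with Top2b on the opposite strand, which was at 0.05 ± 0.08 on the same scale.

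The lipid sensors comprise the PPARs, which bind fatty acids, the LXRs (Nr1h3 and Nr1h2), which bind oxysterols, and Nr1h5, a lanosterol receptor in mice. None of the 6 passed. Nr1h3, LXR alpha, which drives sterol disposal and lipogenesis (chromosome 2, 91184061 to 91202834), was read at 87.7, 90.4, 100.5 and 87.1 CPM in rFGF21 libraries 1, 2, 3 and 5, against 112, 99.8, 126 and 109 CPM in PBS libraries 1, 2, 4 and 5. The ranges overlapped where rFGF21 library 3 exceeded PBS library 2 (log2 fold change -0.29 ± 0.09, edgeR adjusted p = 0.131). Nr1h2, LXR beta, stood at 54.1 ± 3.69 CPM in rFGF21 and 54.4 ± 1.57 CPM in PBS libraries.

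Ppara, the fatty acid sensor that turns on hepatic fat oxidation and the Fgf21 gene during fasting, was at 32 ± 1.76 CPM in rFGF21 and 33.3 ± 6.16 CPM in PBS libraries (log2 fold change -0.06 ± 0.13, edgeR adjusted p = 0.865). The PBS spread came from library 1, at 24.1 CPM, while the other 3 lay between 35.9 and 37.2. Pparg (-0.33 ± 0.13), the adipogenic PPAR, Ppard (-0.01 ± 0.13) and Nr1h5 (-0.42 ± 0.20) also did not pass (edgeR adjusted p 0.192 to 0.987). All 6 log2 fold changes were below 0 in the main edgeR fit. That of Ppard changed sign with DESeq2, above a mean of 1 CPM, and without rFGF21 library 3 or 5 or PBS library 4. Those of Ppara and Nr1h2 changed sign without 1 library or another.

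Steroid receptors bind glucocorticoids, mineralocorticoids and estrogen, and the estrogen-related receptors, which have no known hormone, drive mitochondrial genes with PGC-1 coactivators. None of the 5 passed, and Nr3c2 came closest. Nr3c2, the mineralocorticoid receptor (chromosome 8, 76899442 to 77245012), was read at 10.2, 8.34, 11.3 and 5.94 CPM in rFGF21 libraries 1, 2, 3 and 5, against 14.7, 16.9, 15.9 and 13.1 CPM in PBS libraries 1, 2, 4 and 5. The groups did not overlap, and the log2 fold change was -0.76 ± 0.19 (edgeR adjusted p = 0.0585). With DESeq2 it was called (adjusted p = 0.00394), and in the other 11 alternatives it was not.

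Esrrg (ERR gamma, chromosome 1, 187608791 to 188214885) was near the limit of detection. It had 0, 0, 4 and 3 reads in rFGF21 libraries 1, 2, 3 and 5, against 10, 11, 14 and 19 reads in PBS libraries 1, 2, 4 and 5. Every rFGF21 library had fewer reads than every PBS library, at levels between 0 and 0.0548 CPM in rFGF21 and between 0.142 and 0.277 CPM in PBS. The log2 fold change of -3.04 ± 0.88 (edgeR adjusted p = 0.0994) did not pass. Since the gene passed the filter through PBS libraries alone, its difference adds no support to any count over the 35, and counts of lower genes are also given without it.

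Nr3c1, the glucocorticoid receptor, did not pass, at 66.2 ± 3.08 CPM in rFGF21 and 60.7 ± 6.39 CPM in PBS libraries (log2 fold change 0.13 ± 0.09, edgeR adjusted p = 0.509). Esr1, the estrogen receptor, stood at 22.8 ± 4.76 CPM in rFGF21 and 23.3 ± 3.32 CPM in PBS libraries. Esrra was at 36 ± 2.33 CPM in rFGF21 and 45 ± 8.06 CPM in PBS libraries (-0.32 ± 0.13, edgeR adjusted p = 0.194), and PBS library 4, at 35.2 CPM, lay inside the rFGF21 range.

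The NR4A receptors are immediate early genes that act without a known hormone and are induced by glucagon and stress signals in liver. None of the 3 passed. Nr4a1 was at 3.48 to 7.15 CPM in rFGF21 and 2.96 to 16 CPM in PBS libraries, and its coefficient of variation of 58.6% in PBS was the widest there among the receptors above 1 CPM per kilobase (log2 fold change -0.83 ± 0.42, edgeR adjusted p = 0.323). Nr4a2 (0.349 ± 0.0856 CPM in rFGF21 and 0.262 ± 0.211 CPM in PBS) and Nr4a3 (0.976 ± 0.35 CPM in rFGF21 and 0.656 ± 0.54 CPM in PBS) were low in both groups. Nr4a2 had 0 reads in PBS library 5 and 15 to 30 in the other PBS libraries.

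Among the orphan receptors, Nr2f2 (COUP-TFII, found in veins and stromal cells as well as hepatocytes; chromosome 7, 70351944 to 70360593) was read at 22.5, 21.2, 22 and 23.3 CPM in rFGF21 libraries 1, 2, 3 and 5, against 29.2, 24.0, 27.3 and 25.6 CPM in PBS libraries 1, 2, 4 and 5. The groups did not overlap, by a gap of less than 1 CPM, and the difference did not pass (log2 fold change -0.26 ± 0.09, edgeR adjusted p = 0.155). The other 6 members of this group, Nr2f1, Nr2f6, Nr2c1, Nr2c2, Nr6a1 and Rora, had log2 fold changes between -0.13 and 0.46 and overlapping groups. Nr2c2 (TR4) ranged over 12.2 to 26.9 CPM in rFGF21 and 10.9 to 15.2 CPM in PBS libraries. Nr2f1 had 0 reads in PBS library 4 and 14 to 63 in the other PBS libraries.

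Gene overlap also touches this group. Nr2f6 shares 54.4% of its exon bases with Ocel1 and Nr2c2 shares 30.7% with Mrps25, both on the opposite strand. The log2 fold changes were -0.13 ± 0.14 for Nr2f6 and -0.46 ± 0.11 for Ocel1 (edgeR adjusted p = 0.0593), and 0.46 ± 0.23 for Nr2c2 and -0.32 ± 0.17 for Mrps25. In rFGF21 libraries 2 and 5 Nr2c2 was highest, at 26.9 and 21.9 CPM, and Mrps25 was lowest, at 17.9 and 23.2 CPM.

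Coregulators bring chromatin enzymes to receptors: Ncoa1 and Ncoa2 are p160 coactivators, Ncor1 is the corepressor that carries histone deacetylase to unliganded receptors, and Ppargc1a and Ppargc1b encode the PGC-1 coactivators of mitochondrial and gluconeogenic genes. None of the 5 passed. Ppargc1a (chromosome 5, 51454250 to 51567704) was read at 11.5, 20.6, 14.0 and 9.39 CPM in rFGF21 libraries 1, 2, 3 and 5, against 13.6, 19.8, 31.3 and 31.2 CPM in PBS libraries 1, 2, 4 and 5. PBS libraries 4 and 5 were high while 1 and 2 lay within the rFGF21 range (log2 fold change -0.79 ± 0.29, edgeR adjusted p = 0.176). It was called with DESeq2 (adjusted p = 0.0488) and in no other alternative.

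Ncoa1 was at 15.2 ± 2.07 CPM in rFGF21 and 15.7 ± 2.19 CPM in PBS libraries, and Ncoa2 at 47.6 ± 1.49 CPM in rFGF21 and 46.6 ± 6.3 CPM in PBS libraries. Ncor1, at 71.9 ± 3.26 CPM in rFGF21 and 78.9 ± 17.5 CPM in PBS libraries, was the most read coregulator. Ppargc1b stayed between 1.84 and 4.57 CPM in rFGF21 and between 2.68 and 3.69 CPM in PBS libraries.

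**Figure D3:**
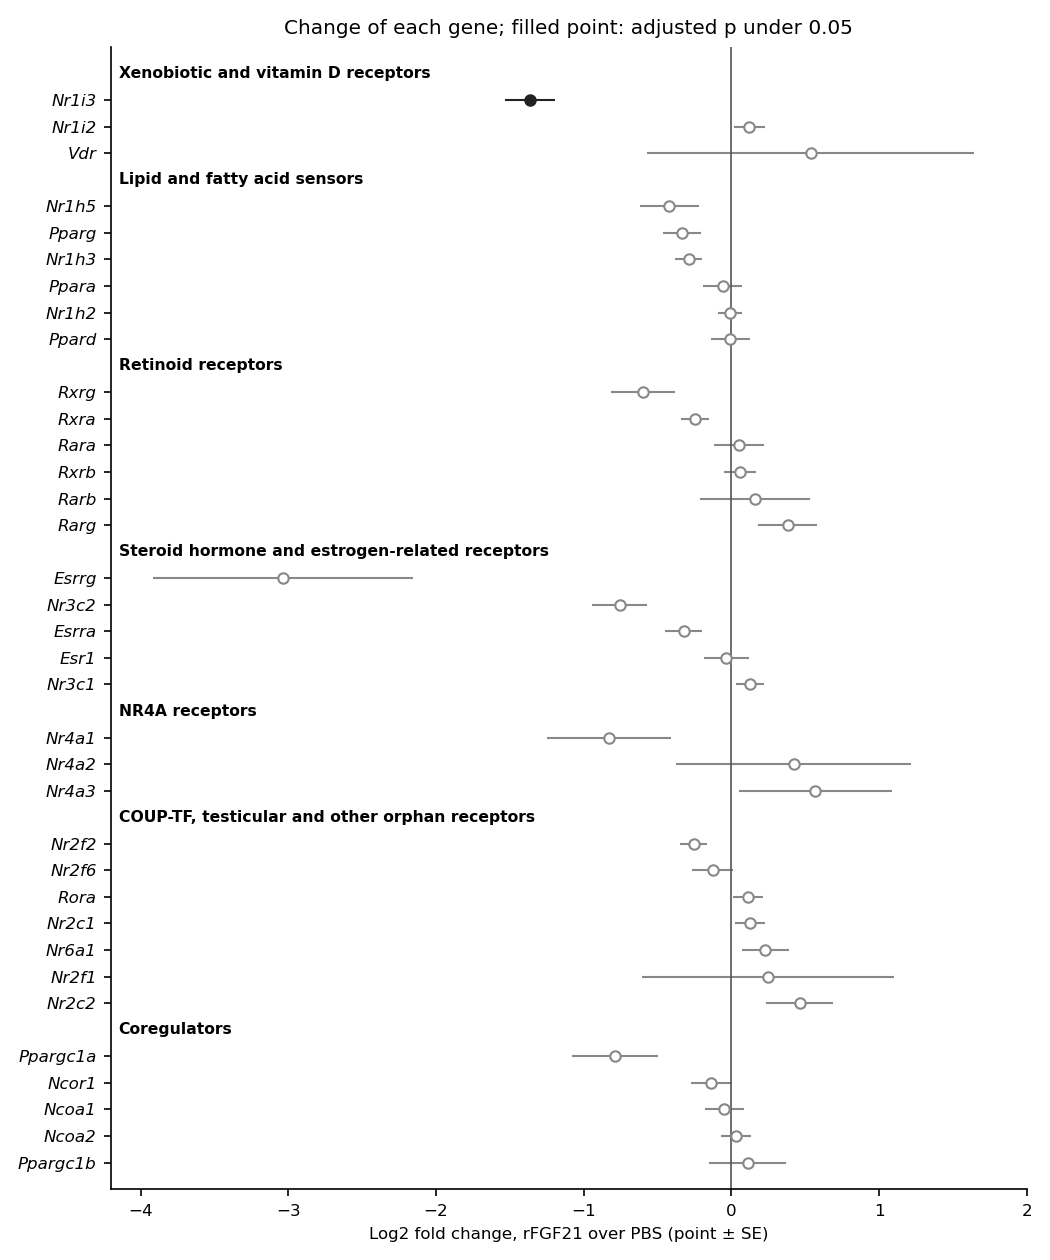
Log2 fold change (rFGF21 over PBS) with its standard error for each of the 35 genes, grouped by role; the filled point marks an edgeR adjusted p under 0.05. Nr1i3 at -1.36 is the 1 filled point, and Esrrg at -3.04 has an SE of 0.88 and rests on 61 reads in 8 libraries.

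The 35 genes can also be counted by separation of the groups. The 4 rFGF21 and 4 PBS libraries did not overlap in CPM for 5 of the 35 genes (14.3%), Nr1i3, Rxra, Nr2f2, Nr3c2 and Esrrg, against 12.3% of all genes tested. In each of these 5 the rFGF21 libraries were the lower ones; over all genes tested 5.90% lay wholly higher and 6.39% wholly lower. Without Esrrg, the count was 4 of 34 (11.8%). At an unadjusted p under 0.05, which is no call, 10 of the 35 were lower (28.6%) and 0 higher, against 9.86% lower and 8.92% higher over all genes tested; without Esrrg, 9 of 34 were lower (26.5%). Without rFGF21 library 1, 6 of the 35 were lower (5 without Esrrg) and 1 higher. Without rFGF21 library 3 or PBS library 5, 8 were lower (7 without Esrrg) and 2 higher. With any other library left out, 8 to 10 were lower and 0 higher. DESeq2 had 10 lower (9 without Esrrg) and 1 higher. The share over all genes at this unadjusted p was not counted in these fits. The median coefficient of variation over the 35 was 13.7% in rFGF21 and 14.7% in PBS libraries.

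**Figure D4:**
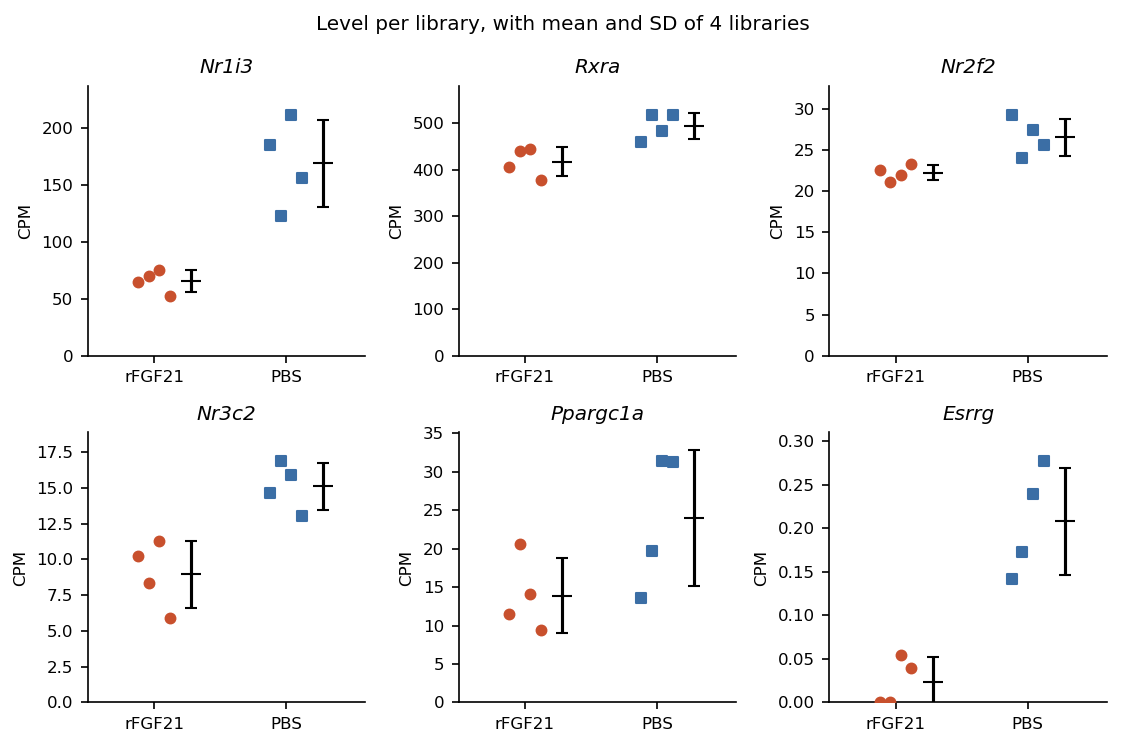
CPM of 6 genes in each rFGF21 library (circles) and PBS library (squares), with mean and SD of 4 libraries beside them; each axis starts at 0. Nr1i3 stands at 65.6 in rFGF21 and 169 CPM in PBS, while Rxra, Nr2f2 and Nr3c2 differ by smaller gaps, Ppargc1a overlaps and Esrrg lies below 0.3 CPM.

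Genes known to be driven by these receptors were read in the same fit, from lists that share some members with each other and with the 35. The lists were chosen with earlier results of these data known. Their counts beside the shares over all genes are therefore description and give no independent support. Over all genes tested in the main edgeR fit 2.82% were called (1.15% higher and 1.67% lower). DESeq2 called 684 of 16295 genes higher and 742 lower. Of 18 tested CAR and PXR targets, 2 fell and 0 rose, with a median log2 fold change of -0.21. Alas1, the first enzyme of heme synthesis, fell 2.73-fold and Cyp1a2, a pericentral oxidase, fell 2.15-fold (edgeR adjusted p = 0.0162 and 0.0472). Cyp2b10, the best known CAR target, lay wholly above PBS, at 3.46 ± 1.91 CPM in rFGF21 and 1.32 ± 0.514 CPM in PBS libraries, opposite in sign to Nr1i3 and without passing (log2 fold change 1.39 ± 0.43, edgeR adjusted p = 0.114). Cyp3a13, an oxidase of the family that PXR drives, was at 0.48 ± 0.13 (edgeR adjusted p = 0.0792). Without rFGF21 library 1 Alas1 was not called (edgeR adjusted p = 0.0554), and Cyp1a2 was not called without a filter on low counts or when any library but PBS 2 or 4 was left out (0.0802 to 0.122). DESeq2 called 3 of the 18 higher and 2 lower.

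Of 26 PPAR-alpha targets 1 fell, and 23 of 26 log2 fold changes were below 0 (median -0.39), with 14 lower at an unadjusted p under 0.05, while Ppara itself did not pass. Over all genes tested 9.86% were lower at that unadjusted p, and 9077 of 18315 log2 fold changes were below 0. Cpt2, which takes long-chain fatty acids into the mitochondrial matrix, fell 1.51-fold (log2 fold change -0.60 ± 0.09, edgeR adjusted p = 0.00876). Slc25a20 (-0.56 ± 0.14, edgeR adjusted p = 0.0585), the carnitine carrier, and the beta-oxidation genes Acadm (-0.33 ± 0.10) and Hadha (-0.29 ± 0.09) did not pass. Without PBS library 4, 5 of the 26 were called lower, against 283 of 18315 genes tested. DESeq2 called 9 of the 26 lower, against 742 of 16295 genes tested. All 17 PGC-1 and ERR targets, mitochondrial genes in the main, had log2 fold changes below 0 (median -0.26, range -0.38 to -0.06), 8 of them at an unadjusted p under 0.05, and none passed; DESeq2 called 2 lower, and without rFGF21 library 2 or PBS library 2, 16 of 17 were below 0. The mitochondrial fusion gene Mfn2 (-0.26 ± 0.07, edgeR adjusted p = 0.0933), Sod2 (-0.27 ± 0.09) and Cycs (-0.38 ± 0.13) had the smallest p in that list beside Acadm.

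Of 15 LXR targets, 1 fell and the median was 0.04. Lpcat3, which loads polyunsaturated chains onto phospholipids, was at 63.1 ± 1.39 CPM in rFGF21 and 94.3 ± 5.19 CPM in PBS libraries, a fall of 1.5-fold (edgeR adjusted p = 0.00611) that was called in all 12 alternatives. The sterol exporter Abcg1 (0.43 ± 0.16) and Arl4c (0.44 ± 0.17) differed in the other direction without passing, although Abcg1 was called higher without PBS library 1 (edgeR adjusted p = 0.0445). Retinoic acid targets had 0 of 10 called (2 at an unadjusted p under 0.05, 1 in each direction). DESeq2, and edgeR without PBS library 2, called 1 higher each. Over all genes tested without PBS library 2, 154 of 18315 were called higher. Cyp26a1, the retinoic acid hydroxylase, was at 3.57 ± 0.504 CPM in rFGF21 and 1.32 ± 0.715 CPM in PBS libraries (log2 fold change 1.44 ± 0.37, edgeR adjusted p = 0.0684), Dhrs3 at -0.32 ± 0.10 and Tgm2 at 0.31 ± 0.14.

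Of 19 tested glucocorticoid receptor targets 2 fell and 0 rose (median -0.40), while Nr3c1 did not pass. Dusp1, a MAP kinase phosphatase, fell 2.66-fold and Klf9, a repressor induced by corticosteroids, fell 1.49-fold (edgeR adjusted p = 0.0222 and 0.0228). Per1 (-0.99 ± 0.25, edgeR adjusted p = 0.0614) and the metallothionein gene Mt2 (1.24 ± 0.31, edgeR adjusted p = 0.0628) did not pass and had opposite signs. Both calls were lost without a filter on low counts, and without rFGF21 library 1 or 5 or PBS library 1 or 5 (edgeR adjusted p 0.0503 to 0.0843), and that of Klf9 also without rFGF21 library 3 (0.057). Without rFGF21 library 2, 7 of the 19 were called lower, against 166 of 18315 genes tested. DESeq2 called 3 lower and 1 higher, against 742 lower and 684 higher of 16295 genes tested. Without PBS library 5, 2 of the 19 were called higher, against 112 of 18315 genes tested.

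Of 11 tested nuclear receptors outside the 35, 1 rose and 1 fell: Nr0b2 (SHP) rose 4.49-fold and Nr1h4 (FXR) fell 1.52-fold. Thrb did not pass (-0.62 ± 0.19, edgeR adjusted p = 0.109) and was called lower with DESeq2 (adjusted p = 0.0249). The call of Nr1h4 was lost without any 1 of the rFGF21 libraries or without PBS library 1 (edgeR adjusted p 0.0546 to 0.0642), and without rFGF21 library 3 another of the 11 was called lower. Whether the 11 differ from the 35 was not tested. Of 22 further coregulators 0 passed in edgeR or DESeq2 (4 at an unadjusted p under 0.05, 3 of them higher), and their median was -0.00609; Lpin1 (-1.25 ± 0.44), Ncoa5 (0.30 ± 0.10), Tbl1xr1 (0.25 ± 0.10) and Prmt1 (0.29 ± 0.12) had the smallest p.

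**Figure D5:**
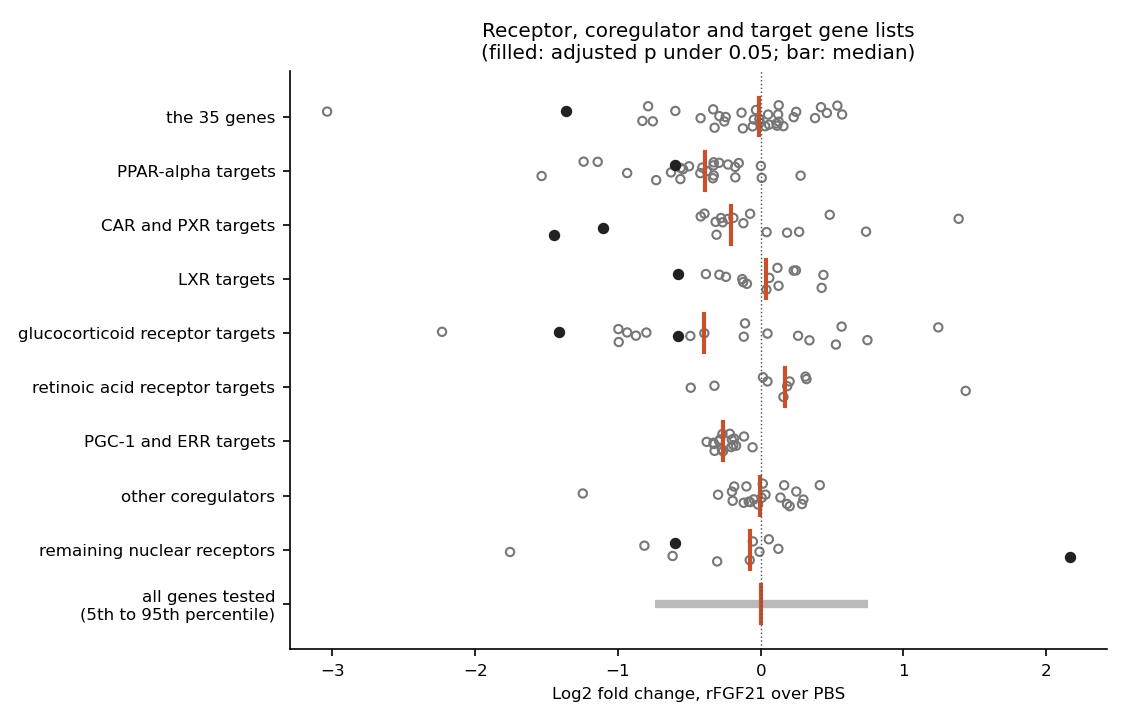
Log2 fold changes (rFGF21 over PBS) of single genes in the 35 and in lists of targets and related factors; filled points passed at an edgeR adjusted p under 0.05, bars mark list medians, and the grey bar spans the 5th to 95th percentile of all genes tested. The 17 PGC-1 and ERR targets lie close together below 0, with a median of -0.26, and the 35 genes centre on -0.01.

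Markers of cell types were read beside these values. Over all genes tested, 8.92% were higher and 9.86% lower at an unadjusted p under 0.05. All 7 cholangiocyte markers had positive log2 fold changes (median 0.62; 5 at an unadjusted p under 0.05; edgeR called none in the full fit and 1 without rFGF21 library 2, and DESeq2 called 2), and their summed level was 237 to 369 CPM in rFGF21 and 171 to 265 CPM in PBS libraries. Of the 9 stellate cell and fibroblast markers, 8 had positive log2 fold changes (median 0.34, 4 at an unadjusted p under 0.05, none called by edgeR and 2 by DESeq2), and they summed to 1019 to 1572 CPM in rFGF21 and 789 to 1113 CPM in PBS libraries. Of the 8 Kupffer cell and macrophage markers, 6 had negative log2 fold changes (median -0.51, 1 lower at an unadjusted p under 0.05). Neither edgeR nor DESeq2 called any of them, and they summed to 360 to 720 CPM in rFGF21 and 544 to 886 CPM in PBS libraries. Of the 8 hepatocyte markers, 6 had negative log2 fold changes (median -0.09, 1 in each direction at an unadjusted p under 0.05). DESeq2, and edgeR without PBS library 4, each called 1 of the 8 higher. The 8 markers summed to 68093 to 84847 CPM in rFGF21 and 71140 to 90776 CPM in PBS libraries. The 4 adipose markers were at most 0.0411 CPM in rFGF21 and between 0.0513 and 5.91 CPM in PBS libraries, the highest in PBS library 2. All 6 tested neutrophil markers had positive log2 fold changes (median 0.76, 2 at an unadjusted p under 0.05, none called by edgeR or DESeq2), and the 7 in the table summed to 14.1 to 27.5 CPM in rFGF21 and 12.2 to 19.2 CPM in PBS libraries. The group sums of each of these lists but the adipose markers overlapped, as did the sums for endothelial cells (92.7 to 170 CPM in rFGF21 and 102 to 194 CPM in PBS), T and NK cells (8.46 to 10.2 CPM in rFGF21 and 8.67 to 9.80 CPM in PBS) and B cells (12 to 17.8 CPM in rFGF21 and 9.01 to 20.3 CPM in PBS). Of the 8 endothelial markers, 6 had negative log2 fold changes (median -0.16, 0 at an unadjusted p under 0.05). Of the 7 T and NK cell markers, 3 had positive and 4 negative log2 fold changes, and DESeq2 called 1 higher. The part of these shifts in the values of Nr1i3 and the other receptors was not tested.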

How the data were processed

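Whole-number read counts for each gene, per the file headers, were taken as deposited from 8 of 10 count columns, those that also have an FPKM column. The FPKM values themselves and the other count columns, 10 columns in all, were not used, since columns could not be tied to single samples; levels per length are CPM divided by merged GENCODE M21 exon length instead of the planned FPKM. Columns were assigned to groups, not to single samples, because their numbers differ from those of the labels. Bowtie 0.12.2 and build mm8 are named in the submitters' processing notes, but coordinates of 26331 of 30177 gene identifiers shared with GENCODE M21 (GRCm38) are identical there, so they are given as GRCm38; 25 of the 35 genes match exactly. No source states the counting tool or its strand setting, so near-identical copies and overlapping genes are uncertain.

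The fit used edgeR 4.0.16 under R 4.3.3 (filterByExpr, TMM, quasi-likelihood F test, two-sided, no covariates) and adjusted by Benjamini-Hochberg over 18315 genes; every edgeR adjusted p is from that test. CPM use TMM-scaled library sizes. The edgeR step was tested on simulated data. DESeq2 1.42.0 and its size factors in edgeR, other filters and each library left out were alternatives. A 0 allows up to 3 reads, which covers counting error only. Nothing in the labels ties samples to separate animals, and the p-values cover only differences among these samples, which may be technical; every library pair differed beyond sampling noise (chi-square per degree of freedom at least 47.1). Exon overlap uses all GENCODE M21 transcripts, and windows come from RefSeq. The genes and lists were chosen with earlier results of these data known. Values per library are given for called genes, the 6 next smallest p, genes whose groups did not overlap and the highest per length, and in other lists up to 4 genes by p are named; Tomm40l, Top2b, Ocel1 and Mrps25 were added after the exon overlap was seen. Of the remaining nuclear receptors, 1 gene was left out of the list and is not reported here.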

Additional observations from a re-analysis of the deposited data

Results flagged for a closer look

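Among 142 groups of 4 libraries checked, 3 had a library that lay far from the other 3; chance alone flags about 5% of groups. Ppara was at 24.1 CPM in PBS library 1, below the other PBS libraries at 35.9 to 37.2 CPM. Pparg was at 11 CPM in rFGF21 library 3, below 12.5 to 12.8 CPM in the other rFGF21 libraries. Mrps25, which overlaps Nr2c2, was at 36.2 CPM in PBS library 1, above 31.4 to 32 CPM in the other PBS libraries.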

How the results depend on the processing

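Nr1i3 was the 1 gene of the 35 called lower in each of the 12 alternatives run but DESeq2, which called 3 (Nr1i3, Nr3c2 and Ppargc1a); no alternative called any of them higher. Over all genes, DESeq2 called 684 higher and 742 lower, and edgeR without a filter on low counts 85 and 113. With 1 library left out, 60 to 206 genes were called higher and 91 to 283 lower, fewest without rFGF21 library 1. Small log2 fold changes reversed sign: Ppard was at 0.0038 with DESeq2 and 0.000455 above a mean of 1 CPM. With 1 library left out the ranges were -0.0605 to 0.12 for Ppard, -0.179 to 0.000879 for Ppara, -0.0513 to 0.0293 for Nr1h2, -0.172 to 0.0741 for Esr1, -0.143 to 0.0553 for Ncoa1, -0.0783 to 0.312 for Ppargc1b, -0.0507 to 0.234 for Rara, -0.168 to 0.693 for Nr2f1, -0.123 to 0.446 for Rarb, -0.0533 to 0.0953 for Ncoa2, -0.0200 to 0.132 for Rxrb, -0.241 to 0.0198 for Ncor1 and -0.0398 to 0.154 for Alb. The cause was not tested. The planned limma fits on FPKM were not run because those columns were not used. No paired analysis was possible because column numbers and the labels' sample numbers do not correspond. At under 1 CPM per kilobase, few reads limit what can be seen.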
